A study of Drosophila melanogaster with 35 samples.

Results

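The genes pAbp, larp, eEF1alpha1 and eIF3c of the mRNA-binding and translation machinery were examined, chosen by the peaks that the lists already showed on their transcripts. They are 4 of 13986 annotated protein-coding genes. A peak was counted for a gene when it covered at least 1 nt of the gene on the gene's own strand. In all, 20 of 3235 peaks lay in the 4 genes. The data came from fractionated iCLIP of CLAMP, in which ultraviolet light of 254 nm links a protein to the RNA it touches in living cells before the cells are split into fractions and the protein is precipitated with an antibody. CLAMP is a zinc-finger protein of Drosophila melanogaster known for binding GA-rich DNA and for its part in dosage compensation of the male X chromosome, and the series asks which RNAs it contacts in a male and a female line.

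S2 cells, an established male line of embryonic origin, and Kc cells, an established female line of embryonic origin, were each separated into chromatin, nucleoplasm and cytoplasm, and no genotype or drug differed among the groups. All 35 libraries came from crosslinked cells. There were 24 CLAMP libraries, 4 for each line and fraction, and 11 libraries made without antibody, 2 for each line and fraction except 1 for Kc chromatin. The peak lists held 1416 peaks for S2 chromatin, 874 for Kc chromatin, 391 for S2 nucleoplasm, 546 for Kc nucleoplasm and 8 for Kc cytoplasm. S2 cytoplasm peaks were not analysed here. Each list stands for a whole line and fraction, so there is no spread between replicates, and no difference below was tested. The read depth of the libraries and peaks is unknown, and the score column reads 0 in every peak. No peak list for the libraries without antibody was analysed, so the peaks alone do not separate contacts of CLAMP from background. Peak lists hold no expression levels, so, in these bulk libraries, more contact and more RNA of a gene cannot be told apart, and the lines could not be checked against marker genes.

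The 4 genes act in the handling of mature mRNA. Messenger RNAs end in a poly(A) tail, which pAbp, the cytoplasmic poly(A)-binding protein, coats, and the bound tail promotes translation and guards the message against decay. The product of larp is a La-related protein that associates with pAbp in Drosophila, and its mammalian relative LARP1 binds mRNAs with a 5' terminal oligopyrimidine tract. The protein eIF3c is a subunit of eIF3, the initiation factor complex that helps load the small ribosomal subunit onto mRNA, and eEF1alpha1 is the elongation factor that carries aminoacyl-tRNA to the ribosome. Several genes of the translation machinery also host small nucleolar RNAs (snoRNAs) in their introns. These guide chemical modification of ribosomal RNA.

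Peaks on the 4 genes were found mainly in the chromatin lists. The S2 chromatin list had 15 of them, with 8 in pAbp, 3 in larp, 3 in eEF1alpha1 and 1 in eIF3c. In Kc chromatin each gene had 1 peak, 4 in all. Of peaks at least 30 nt wide, S2 chromatin had 5 and Kc chromatin 4, so most of this difference lay in narrower peaks. The S2 nucleoplasm list had 0, Kc nucleoplasm had 1, in eEF1alpha1, and Kc cytoplasm had 0. The 4 genes thus took 1.06% of S2 chromatin peaks (95% Wilson interval 0.643 to 1.74), 0.458% of Kc chromatin peaks (0.178 to 1.17) and 0.183% of Kc nucleoplasm peaks (0.0323 to 1.03). Among 391 S2 nucleoplasm peaks a count of 0 allows a share of up to 0.767%, taken as 3 peaks of the total in place of a Wilson limit, and among 8 Kc cytoplasm peaks up to 37.5%, so nothing can be read from the Kc cytoplasm list. These intervals and limits cover counting error only. They treat peaks as independent, which peaks of 1 gene are not, and 8 of the 15 S2 chromatin peaks lay in pAbp. As background, the S2 chromatin list had peaks on 3.27% of all protein-coding genes (458), and the Kc chromatin list on 0.715% (100). The S2 nucleoplasm list had them on 0.122% (17), the Kc nucleoplasm list on 0.508% (71) and the Kc cytoplasm list on 0%. Because the 4 genes were chosen for their peaks, nothing is read from their counts against these shares.

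**Figure D1:**
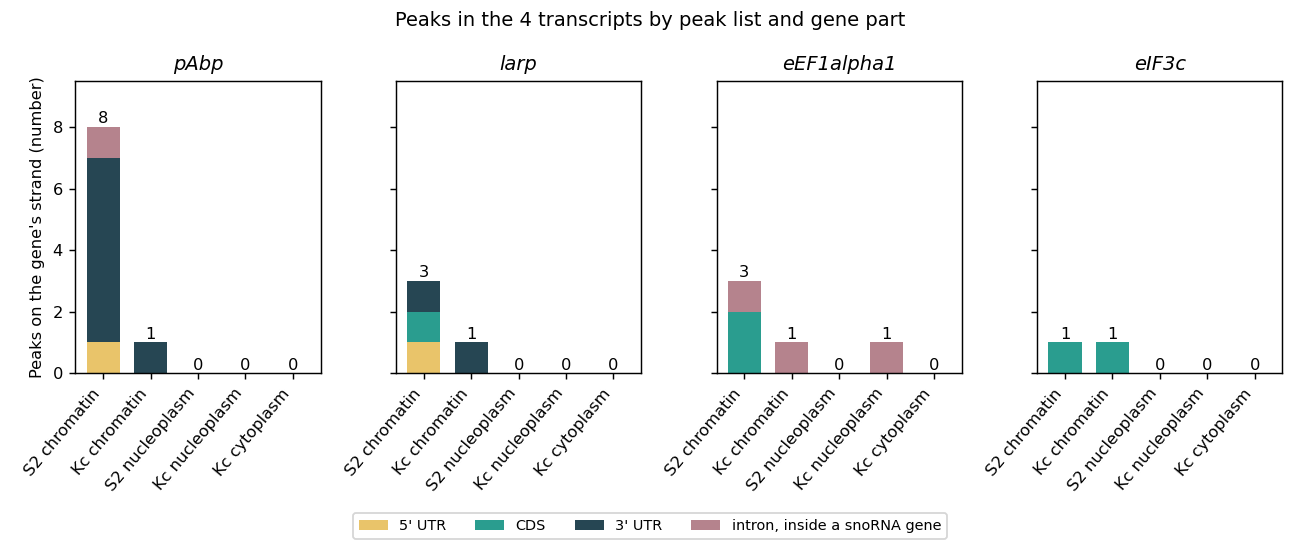
Number of peaks on the gene's own strand (vertical axis) in each of the 5 peak lists (horizontal axis), 1 panel per gene, with bars stacked by gene part. S2 chromatin has 8 peaks in pAbp, 6 of them in the 3' UTR, and no other gene and list reaches more than 3.

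The pAbp gene (FBgn0265297) lies on chromosome 2R at 18140078 to 18147191 of the dm6 build, plus strand, and has 3 annotated transcripts that share 1 coding sequence of 1905 nt and differ in where they begin and end. Of its 8 S2 chromatin peaks, 6 lay in the 3' UTR, 1 in the 5' UTR and 1 in an intron, inside a snoRNA gene. The coding sequence held 0 peaks although it is as long as the 3' UTR, which spans 1904 nt in the longest transcript. That made 3.15 peaks per kb of 3' UTR and, from the 1 peak there, 2.02 per kb of 5' UTR. The 458 coding genes with an S2 chromatin peak, pAbp among them, together had 0.259 peaks per kb of 3' UTR and 0.167 per kb of coding sequence. Per kb of 5' UTR they had 0.113, so pAbp was above these genes in both UTRs. Because pAbp was chosen for its peaks, these values are a description and nothing is read from the difference.

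The 6 peaks in the 3' UTR of pAbp were short and spaced out. They lay at 18145501 to 18145526, 18145628 to 18145659, 18145844 to 18145870, 18145972 to 18145999, 18146564 to 18146590 and 18146982 to 18147002. Their widths ran from 21 to 32 nt, and the gaps between neighbours were 101, 184, 101, 564 and 391 nt. Counted in the spliced mRNA of the longest transcript, pAbp-RB, they began 214, 341, 557, 685, 1277 and 1695 nt after the stop codon. The last one ended 189 nt before the annotated end of that transcript, so the peaks ran along most of the 3' UTR and were not gathered at its end.

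The transcripts of pAbp hold different numbers of these peaks. The 3' UTR is 331 nt in pAbp-RA, 1904 nt in pAbp-RB and 948 nt in pAbp-RC. Only the first of the 6 peaks lies within all 3 transcripts. The next 3 peaks lie within pAbp-RB and pAbp-RC, and the last 2 in pAbp-RB alone. Transcript pAbp-RA ends at 18145618, upstream of the 5 later peaks, so at least those 5 lie on RNA that extends past its annotated end. Which transcripts the cells made was not measured.

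In Kc chromatin the single pAbp peak, at 18145820 to 18145864, was also in the 3' UTR. It was 45 nt wide and began 533 nt after the stop codon. It shared 21 nt with the S2 peak at 18145844 to 18145870, which is 77.8% of the S2 peak and 46.7% of the Kc peak. The other 5 S2 peaks of the 3' UTR had no Kc peak over them.

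**Figure D2:**
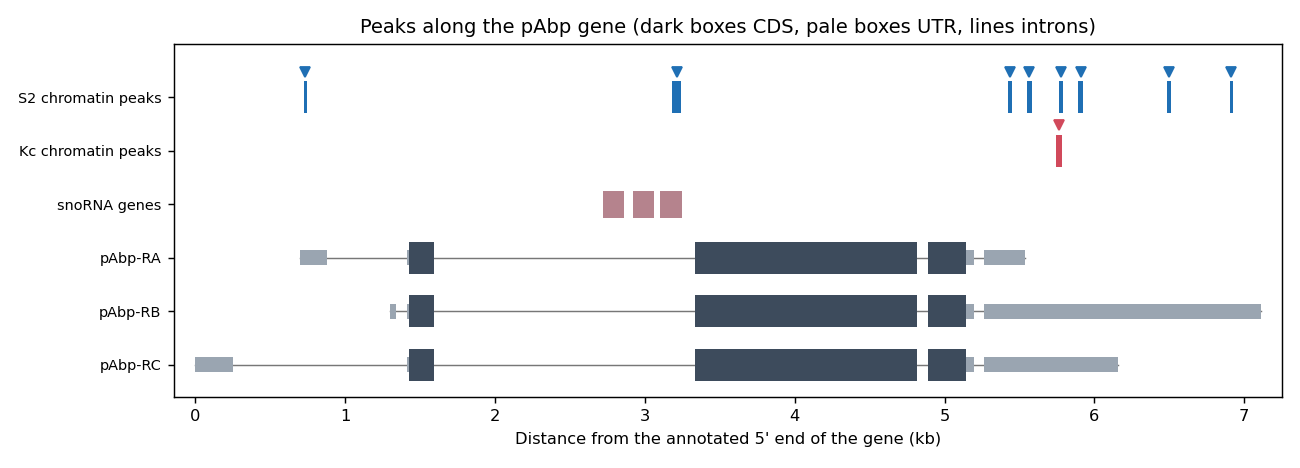
Peaks of S2 chromatin (top row) and Kc chromatin (second row) along the pAbp gene, with its snoRNA genes and 3 transcripts beneath, against distance from the gene's annotated 5' end in kb. Marks above the peaks show their position. The 6 S2 peaks past the stop codon spread over the 3' UTR, the coding sequence holds 0, and the 1 Kc peak overlaps an S2 peak.

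The other 2 pAbp peaks of S2 chromatin lay towards the 5' end of the gene. The one at 18140801 to 18140822 was 22 nt wide and began 24 nt after the annotated 5' end of pAbp-RA, in a first exon that only this transcript uses. The one at 18143259 to 18143321, 63 nt wide, lay in the intron within snoRNA:Psi18S-1347c (18143179 to 18143324), by its name a guide for a pseudouridine in 18S ribosomal RNA. It covered 43.2% of that gene of 146 nt. The neighbouring copies snoRNA:Psi18S-1347a (137 nt) and snoRNA:Psi18S-1347b (143 nt), in the same intron, had 0 peaks in every list. Since copies of a snoRNA can resemble each other in sequence, reads may have been placed on one copy or the other, and the assignment to the c copy is uncertain.

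Set beside other genes, pAbp had the highest peak number in S2 chromatin. Of the 458 genes with a peak there, 391 had 1, 50 had 2, 14 had 3, 2 had 4 and pAbp had 8. The genes with 4 were aqz and RpL3. Genes with at least 3 peaks made up 3.71% of the 458, and 3 of the 4 genes described here are among them. Of the 146 genes with a 3' UTR peak, pAbp with 6 was ahead of aqz with 4, and every other gene had at most 2. Per kb of exon the order was less extreme: pAbp had 1.63 exonic peaks per kb, and 12 of 362 genes had more. In Kc chromatin, where 16 genes had more peaks than its 1 and 83 others had the same number, pAbp did not stand out. These ranks use the counts by which the gene was chosen and are a description. They count peaks of any width. Of the 8 S2 chromatin peaks of pAbp, 2 were at least 30 nt wide, 1 of them inside a snoRNA gene.

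By their numbers of peaks over the 5 lists, the genes nearest to pAbp were larp and Sf3b3, a subunit of the splicing factor SF3b. Each had 3 S2 chromatin peaks and 1 Kc chromatin peak, a summed difference of 5 peaks from pAbp. Another 18 genes followed at a summed difference of 6, among them aqz, RpL3 and eEF1alpha1. Identical numbers over the 5 lists were found for 0 other genes in the case of pAbp and eEF1alpha1, 1 other gene in the case of larp and 10 others in the case of eIF3c.

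The larp gene (FBgn0261618) spans 18279 nt on chromosome 3R, 28318162 to 28336440, minus strand, and has 7 annotated transcripts. Its 3 S2 chromatin peaks were divided among the parts of the mRNA, with 1 each in the 5' UTR, the coding sequence and the 3' UTR. The 5' UTR peak, at 28336349 to 28336408, was 60 nt wide and began 32 nt after the annotated 5' end of larp-RD, the only one of the 7 transcripts that holds it. The coding peak, at 28321173 to 28321216, was 44 nt wide and ended 589 nt before the stop codon, in all 7 transcripts. The 3' UTR peak, at 28319603 to 28319628, was 26 nt wide and began 954 nt after the stop codon in a 3' UTR of 2420 nt.

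In Kc chromatin the larp peak was again in the 3' UTR, at 28319578 to 28319610. It was 33 nt wide and began 972 nt after the stop codon. It shared 8 nt with the S2 peak, which is 30.8% of the S2 peak and 24.2% of the Kc peak, the smallest overlap among these genes. The S2 peaks of the larp 5' UTR and coding sequence had no Kc peak over them. With 9126 nt of exon, larp had 0.329 exonic peaks per kb in S2 chromatin, close to the median of 0.357 over genes with an exonic peak there.

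The elongation factor gene eEF1alpha1 (FBgn0284245) lies on chromosome 2R at 11891135 to 11895762, plus strand, with 4 transcripts. In S2 chromatin it had 2 peaks in the coding sequence and 1 in a snoRNA, and 0 in its UTRs. The first coding peak, at 11893600 to 11893626, was 27 nt wide and began 25 nt after the first base of the start codon. The second, at 11894263 to 11894303, was 41 nt wide and began 688 nt after it. All 4 transcripts hold both, and no Kc peak lay over them. The paralogous gene eEF1alpha2 on chromosome 3R, which encodes a closely related protein, had 0 peaks in all 5 lists. The sources used here do not give how reads that match both genes were treated.

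The other eEF1alpha1 peaks all lay on snoRNA:Me28S-A1322, by its name a guide for ribose methylation of 28S ribosomal RNA, which occupies 73 nt of an intron at 11893123 to 11893195. This snoRNA was the 1 place in the 4 genes with a peak in 3 lists. The S2 chromatin peak, at 11893152 to 11893173, was 22 nt wide and covered 30.1% of the snoRNA. In Kc chromatin the peak, at 11893128 to 11893194, was 67 nt wide and covered 91.8%. In Kc nucleoplasm it was at 11893133 to 11893192, was 60 nt wide and covered 82.2%. The S2 peak lay wholly inside both Kc peaks and made up 32.8% of the Kc chromatin peak and 36.7% of the Kc nucleoplasm peak. The Kc chromatin peak also held the whole of the Kc nucleoplasm peak, whose 60 nt are 89.6% of it. The Kc lists thus had peaks over the snoRNA of eEF1alpha1 and 0 over its exons.

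Peaks inside a snoRNA or another small RNA gene were counted over all protein-coding genes with a peak. In S2 chromatin 8.3% of the 458 protein-coding genes with a peak had 1 or more of this kind, and in Kc chromatin 30% of 100 had. Of the 4 genes, pAbp and eEF1alpha1 had such a peak in S2 chromatin, and eEF1alpha1 had 1 in Kc chromatin. A peak there cannot be divided between the host's unspliced transcript and the snoRNA itself.

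The eIF3c gene (FBgn0034258), on chromosome 2R at 17665678 to 17669275, plus strand, had 1 peak in each chromatin list, both in the coding sequence towards opposite ends of it. The S2 peak, at 17666474 to 17666496, was 23 nt wide and began 345 nt after the first base of the start codon. The Kc peak, at 17668812 to 17668858, was 47 nt wide and ended on the last base before the stop codon. They lay 2315 nt apart in the gene, so the presence of eIF3c in both lists does not come from a shared position. Exonic peaks that lay within 3 nt of a stop codon were 2.39% of 418 in S2 chromatin and 4% of 50 in Kc chromatin.

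**Figure D3:**
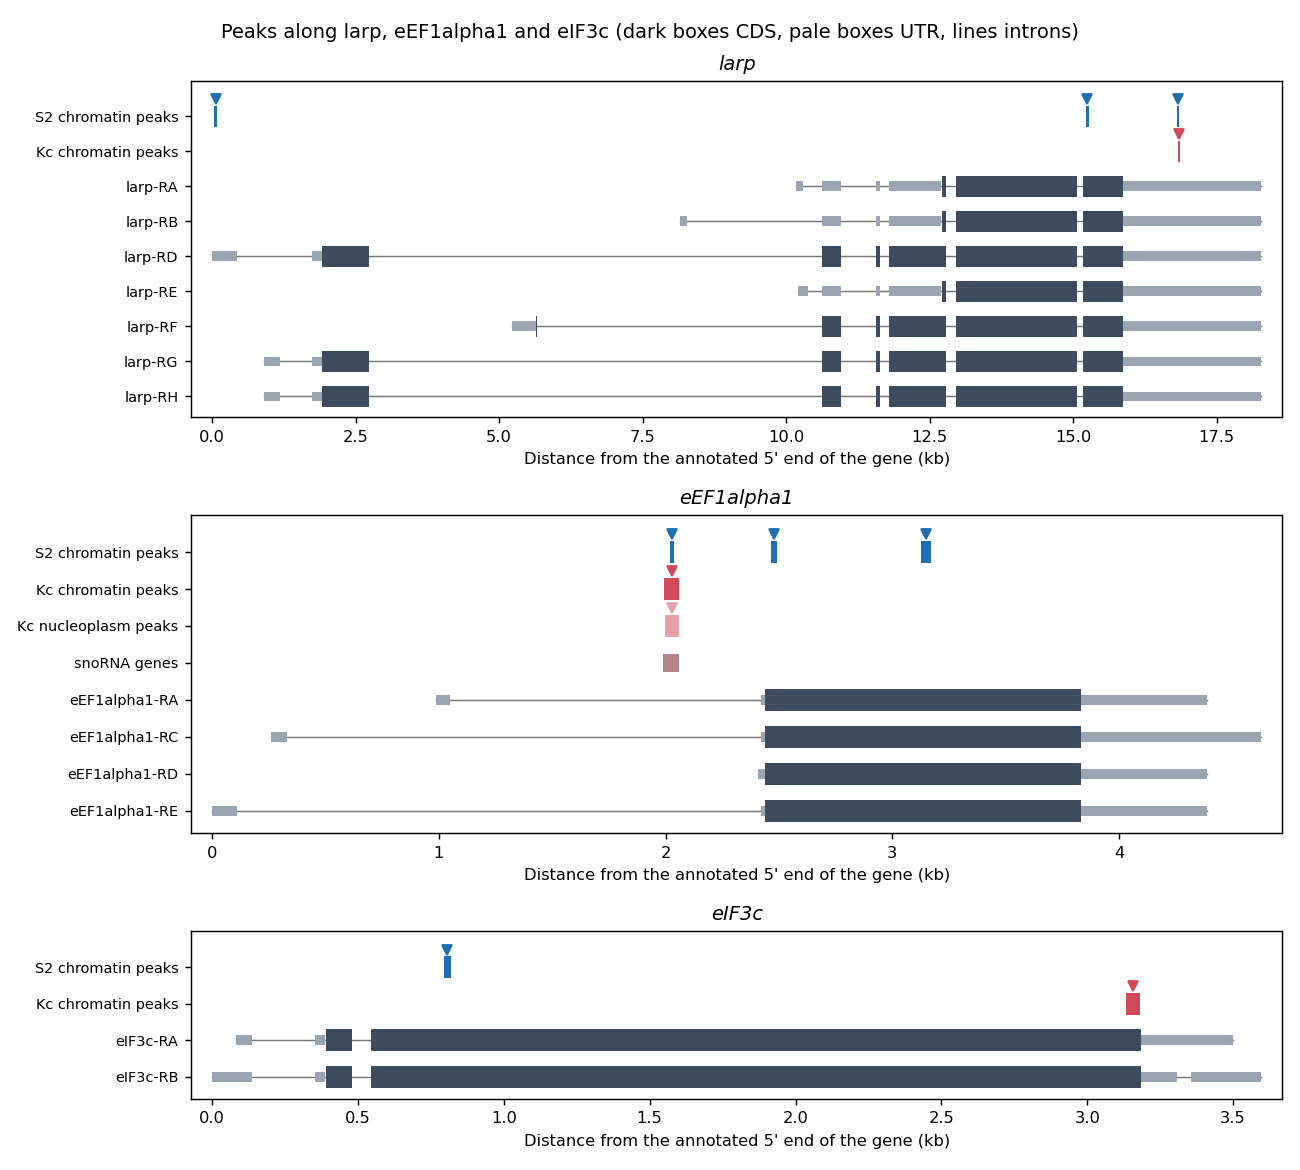
Peaks along larp, eEF1alpha1 and eIF3c, 1 panel per gene in the direction of transcription, with S2 chromatin above Kc chromatin and, for eEF1alpha1, Kc nucleoplasm, against distance from the gene's annotated 5' end in kb. In larp the Kc peak overlaps the S2 peak of the 3' UTR, in eEF1alpha1 the peaks of 3 lists meet on the snoRNA, and in eIF3c the S2 and Kc peaks are 2315 nt apart.

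All 4 genes had a peak in both chromatin lists, which 0.257% of protein-coding genes (36) had. With peaks of at least 30 nt only the number was 3, without eIF3c. With peaks inside small RNA genes left out it was also 3, without eEF1alpha1. The 36 genes were counted over all peaks, so they are no match for these numbers. With all peaks counted, an S2 and a Kc peak overlapped by at least 1 nt in pAbp, larp and eEF1alpha1, and in eIF3c they did not. Among the 36 genes 33.3% (12) had overlapping peaks: pAbp, larp, eEF1alpha1, RpL3, RpS12, Sf3b3, Dek, EcR, Sema1a, caps, sm and CG1909. Counted by peak, 3 of the 15 S2 chromatin peaks of the 4 genes (20%) overlapped a Kc chromatin peak, and 3 of their 4 Kc chromatin peaks (75%) overlapped an S2 chromatin peak. Over all protein-coding genes, 14 of 538 S2 chromatin peaks (2.6%) and 14 of 126 Kc chromatin peaks (11.1%) did so. With peaks of at least 30 nt only, 0 S2 chromatin peaks of the 4 genes overlapped a Kc chromatin peak, and with peaks inside small RNA genes left out 2 did. The 14 of 538 and 14 of 126 count all peaks, so they are no match for these 2 settings. The genes were chosen with these overlaps known, so the difference from all protein-coding genes has no test.

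Gene part and width varied among the 4 genes. Of the 15 S2 chromatin peaks, 2 were in a 5' UTR, 4 in coding sequence, 7 in a 3' UTR and 2 in an intron. The 3' UTR share was 46.7% (95% Wilson interval 24.8 to 69.9), against 30.3% (26.6 to 34.3) of 538 S2 chromatin peaks in protein-coding genes. Of these 7, 6 came from pAbp, and peaks of 1 gene are not independent. Among the 5 S2 chromatin peaks of the 4 genes that were at least 30 nt wide, the 3' UTR share was 20%. The share over all protein-coding genes at that width was not computed, so the 30.3% is no match for it. Of the 4 Kc chromatin peaks, 1 was in coding sequence, 2 in a 3' UTR and 1 in an intron. Both 5' UTR peaks began within 100 nt of an annotated 5' end, as did 40% of the 35 S2 chromatin peaks in 5' UTRs.

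The peaks were narrower in the S2 list. Median width was 27 nt (range 21 to 63) over the 15 S2 chromatin peaks of the 4 genes, and 46 nt (33 to 67) over the 4 Kc chromatin peaks. Only 5 of the 15 S2 peaks were at least 30 nt wide, against 4 of 4 in Kc chromatin. The same order held for the lists as wholes, with medians of 39 nt in S2 chromatin and 58 nt in Kc chromatin, and for peaks in protein-coding genes, with 32 nt over 538 S2 chromatin peaks and 39 nt over 126 Kc chromatin peaks.

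**Figure D4:**
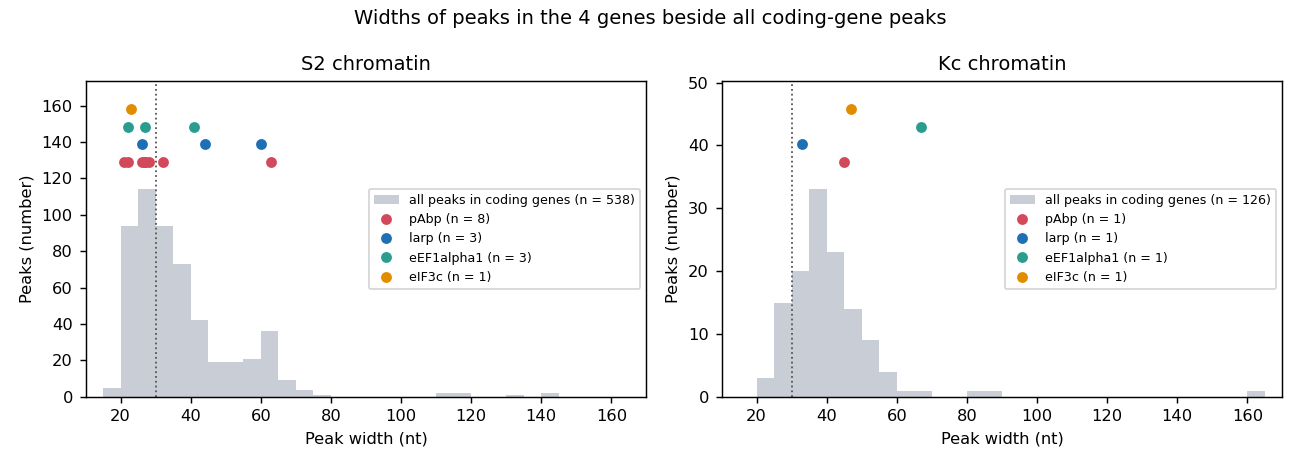
Peak width in nt (horizontal axis) against the number of peaks in protein-coding genes (bars), for S2 chromatin and Kc chromatin, with the peaks of the 4 genes as points whose height has no meaning and a dotted line at 30 nt. Of the 15 S2 points, 10 lie below the line, and all 4 Kc points lie above it.

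No peak lay antisense to any of the 4 genes in any list. Within 1000 nt on either side of the genes, on either strand, there was 1 peak, in S2 chromatin at 18139800 to 18139827, inside the upstream neighbour Pcl.

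The wider machinery was described through 4 gene lists with 116 annotated genes in all, the 4 genes included. These lists were drawn up with earlier results of the same data known, so their counts are a description. In S2 chromatin 22 of the 116 (19%, 95% Wilson interval 12.9 to 27) had a peak. The number was 7 in Kc chromatin (6.03%, 2.95 to 11.9) and 5 in Kc nucleoplasm (4.31%, 1.85 to 9.69), while the S2 nucleoplasm and Kc cytoplasm lists had 0. Leaving out pAbp, larp, eEF1alpha1 and eIF3c, the numbers were 18 of 112 (16.1%) in S2 chromatin, 3 (2.68%) in Kc chromatin and 4 (3.57%) in Kc nucleoplasm. Over all protein-coding genes the share was 3.27% in S2 chromatin, 0.715% in Kc chromatin and 0.508% in Kc nucleoplasm. That share includes genes that these cells may not express, so it is no matched background. All these counts include peaks inside small RNA genes. Of the 116 genes, those with a peak outside small RNA genes numbered 22 in S2 chromatin, 5 in Kc chromatin and 4 in Kc nucleoplasm. The shares over all protein-coding genes include peaks inside small RNA genes, so they are no match for these numbers.

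**Figure D5:**
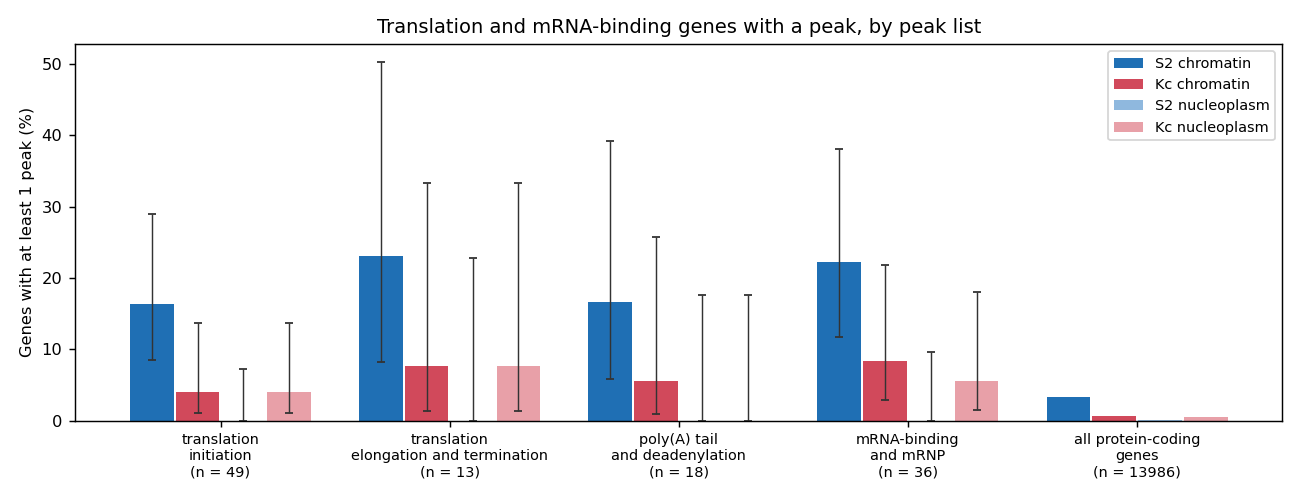
Share of genes with at least 1 peak in percent (vertical axis) for the 4 gene lists and all protein-coding genes (horizontal axis), with a bar for each of 4 peak lists and 95% Wilson intervals as error bars on the gene lists. S2 chromatin has the highest bar in each of the 4 gene lists, between 16.3% and 23.1%, and the intervals are wide. Each gene list includes 1 of the 4 genes chosen for their peaks, which raises its bars. Without that gene the S2 chromatin shares, in the order of the axis, were 14.6%, 16.7%, 11.8% and 20%. The Kc chromatin shares were then 2.08%, 0%, 0% and 5.71%.

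Among translation initiation factors, 8 of 49 genes (16.3%) had an S2 chromatin peak. Besides eIF3c these were eIF1A and eIF5, which act in start codon selection, eIF5B, which joins the ribosomal subunits, eIF3f1, another subunit of eIF3, eIF4G2, a scaffold of the cap-binding complex, eIF4H1 and kra. The peaks of eIF1A (61 nt) and eIF3f1 (60 nt) were in coding sequence. Those of eIF4G2 (32 nt), eIF4H1 (112 nt) and kra (38 nt) were in the 3' UTR, that of eIF5 (31 nt) in the 5' UTR and that of eIF5B (27 nt) in an intron. The eIF4G2 peak also lies in CG33111 and the eIF5 peak in CG46312 on the same strand, so these assignments are uncertain. Neither eIF3a nor eIF3b, 2 further eIF3 subunits, had a chromatin peak.

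Among elongation and termination factors, 3 of 13 (23.1%) had an S2 chromatin peak. Besides eEF1alpha1 these were eEF1beta, part of the exchange factor that recharges eEF1alpha with GTP, with a coding peak of 53 nt, and the release factor gene eRF3, with a 3' UTR peak of 57 nt. Of the genes for binding or shortening the poly(A) tail, 3 of 18 (16.7%) had one. Besides pAbp these were Not1, the scaffold of the CCR4-NOT deadenylase, with a coding peak of 30 nt, and Not3, another subunit of that complex, with a 3' UTR peak of 19 nt. The nuclear poly(A)-binding protein gene Pabp2 had 0 peaks in every list.

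Among other mRNA-binding and messenger ribonucleoprotein genes, 8 of 36 (22.2%) had an S2 chromatin peak. Besides larp these were Unr, Imp, pum, lost, tral, Capr and rin. Unr is a repressor of msl-2 translation that works with Sxl, and Imp and pum are translation regulators. The genes tral and Capr belong to mRNA granules, and rin is the fly relative of the stress granule protein G3BP. The gene rin had 2 peaks, of 22 and 28 nt, both in its 3' UTR. The peaks of Unr (39 nt), Imp (59 nt) and pum (37 nt) were also in the 3' UTR, and those of tral (25 nt), lost (32 nt) and Capr (60 nt) were in coding sequence. Of the La-related relatives of larp, Larp7 and La had 0 peaks in every list.

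Over the 18 listed genes other than the 4, S2 chromatin held 19 peaks, with 10 in a 3' UTR, 7 in coding sequence, 1 in a 5' UTR and 1 in an intron. Their widths ran from 19 to 112 nt with a median of 37 nt. The 8 peaks of pAbp were the most of any listed gene, but pAbp was chosen with that count known. Of peaks at least 30 nt wide, pAbp and larp each had 2 in S2 chromatin.

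In Kc chromatin the listed genes with a peak, other than the 4, were kra, gw and AGO1. The last 2 encode GW182 and Argonaute-1, the proteins of miRNA silencing, and each had 1 peak in its 3' UTR, of 24 nt in gw and 39 nt in AGO1. Only kra among the 112 genes had a peak in both chromatin lists. In Kc nucleoplasm the genes were eIF3b and Larp4B with coding peaks of 27 and 46 nt, eIF4EHP, a cap-binding repressor, with an intronic peak of 37 nt that also lies in Syx1A, and Sxl, the master gene of female sex determination, with an intronic peak of 48 nt.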

How the data were processed

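CLAMP fractionated iCLIP was made from S2 and Kc cells. STAR 2.5.2b-2, cutadapt 3.5, UMI-tools and FastQC were used on build dm6, per the submitters' processing notes. Per the labels' protocols, peak calling followed the Galaxy CLIP-Explorer methods; the sources used here give neither the caller nor its threshold. The deposited lists give peak coordinates, a strand and a score, which the authors left at 0 in every peak. Per the labels, 4 CLAMP libraries name each list (3 in Kc nucleoplasm), and 1 or 2 libraries without antibody name it too; which entered a list is not given. Read depth is unknown.

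Peaks were placed on Ensembl release 115 genes in Python 3.11.15 (scipy 1.17.1, numpy 2.4.6), with plots from matplotlib 3.10.9. Coordinates are 1-based. A peak's gene part was taken at its midpoint, in the order 5' UTR, CDS, 3' UTR, intron. A small RNA gene was one annotated as snoRNA, snRNA, tRNA, miRNA or miRNA precursor, or one annotated as ncRNA and shorter than 500 nt. The placing was checked on simulated peaks inside exons of protein-coding genes, drawn from the same annotation. Chromosome 2R and introns were left out of that check. The members and gene lists were chosen with earlier results of these data known. Named genes were the 4, every listed gene with a peak, and the genes nearest pAbp by peak numbers. Relatives of the 4 with 0 peaks, the 12 genes with overlapping S2 and Kc peaks and the neighbour Pcl were named after their values were seen. Of 120 listed symbols, 116 matched the annotation. The 4 unmatched symbols, Hiipp1, nos, Dcp1 and Dcp2, were left out, so any peaks of these genes are not counted. No test was run: each line and fraction has 1 list.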

Additional observations from a re-analysis of the deposited data

How the results depend on the processing

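Keeping only peaks of at least 30 nt lowered the S2 chromatin peaks of the 4 genes to 5, with 2 in pAbp, 1 in eEF1alpha1 and 0 in eIF3c, while Kc chromatin kept 4. It lowered the S2 peaks overlapping a Kc chromatin peak to 0 and the 3' UTR share to 20%, and raised the median width to 44 nt. Requiring at least 50% of a peak in exons left 0 peaks of the 4 genes in Kc nucleoplasm, and so did leaving out peaks inside small RNA genes, an alternative chosen after seeing the data. In both cases eEF1alpha1 had 0 peaks in Kc chromatin as well. Merging peaks within 10 nt, or ignoring the strand, kept all 10 summary values and all 20 counts by gene and list within 1.5 times. These settings could change little in the 4 genes. No peak lay antisense to them, and the 3' UTR peaks of pAbp were at least 101 nt apart. All 3 S2 peaks that overlap a Kc chromatin peak are narrower than 30 nt. No paired analysis was possible because each line and fraction has 1 peak list. Without read counts, replicate lists or a control list, neither peak height nor background could be weighed.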

Other observations

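The gene kra, a translation regulator of the eIF5C family, was the listed gene outside the 4 with peaks in both chromatin lists, and its peaks lay in different parts of the gene. In S2 chromatin it had 1 peak of 38 nt in the 3' UTR, at 5595920 to 5595957 on chromosome 3R. In Kc chromatin it had 3 intronic peaks of 35, 36 and 31 nt, each inside a snoRNA gene: snoRNA:Psi28S-3385b, snoRNA:Psi28S-3091b and snoRNA:Psi28S-3186. With 1 list per line, this difference was not tested. The 4 genes did not share 1 pattern: the Kc chromatin peak of eEF1alpha1 lay on a snoRNA that had an S2 chromatin peak too, while pAbp had its snoRNA peak in S2 chromatin and its Kc chromatin peak in the 3' UTR.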
